A study of Homo sapiens with 6 samples.

Results

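The genes described here are 10 core genes of RNA interference and microRNA processing: DROSHA, DGCR8, XPO5, DICER1, AGO1, AGO2, AGO3, AGO4, TNRC6A and TNRC6B. They were taken by name from the 13885 genes of the authors' deposited DESeq2 table, after matching its Ensembl identifiers to gene symbols, and 10 of 10 were listed. RNA was measured in BE(2)-C, a human neuroblastoma cell line labelled wild type, in 2 groups of 3 samples. One group was transfected with a small interfering RNA (siRNA) against PCIF1 and the other with a scrambled siRNA (siScram), in both cases for 24 h. Each of the 6 samples was next grown for 4 days with all-trans retinoic acid (ATRA) at 10 µM. ATRA makes these cells take on a more neuronal form, and PCIF1 is the enzyme that methylates an adenosine next to the mRNA cap (m6Am). Every sample therefore carried an siRNA and ATRA, and no group without either was analysed here. The table gives 1 comparison of the groups and 1 mean over all libraries for each gene, so no value per sample can be shown, and the standard error (SE) is the measure of spread. The labels do not say whether samples of one group are separate cultures. The p-values therefore cover only the spread between these samples.

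A microRNA begins as a hairpin in a longer primary transcript. In the nucleus the Microprocessor, made of the RNase DROSHA and its RNA-binding partner DGCR8, cuts the hairpin out. XPO5 (exportin 5) carries it to the cytoplasm with the GTPase RAN. There DICER1 trims it to a short duplex, and an Argonaute protein keeps one strand as its guide. The guide pairs with mRNAs mainly through its seed, the bases from 2 to 8. TNRC6 proteins bind the Argonaute and recruit the CCR4-NOT and PAN2-PAN3 deadenylases and decapping factors, which shorten and degrade the target. An siRNA delivered to cells enters the same Argonaute proteins, and AGO2 is the one known for cutting a fully paired target.

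PCIF1, the siRNA target, set the direction of all values below. Its log2 fold change by the authors' deposited table was -0.82 (with an SE of 0.19, DESeq2 adjusted p = 0.000167), which is 56.6% of the siScram level if read as siPCIF1 over siScram. The header does not state the direction, and the name of the table puts siScram first. Read in that plain order, every sign below would turn, and the sign of PCIF1 is no check of the knockdown. The fold changes appear to be shrunken towards 0, because their SE never exceeds 0.295, so large changes may be understated. Of 9 markers of adrenergic neuroblastoma chosen to check the cell type, 9 were listed, and 7 of 14 markers of other cell types were listed too. The adrenergic markers did not move as one: HAND2 rose (0.74) and ISL1 fell (-0.77) in the authors' deposited table and DESeq2, while DBH and TH did not pass. Of the other markers, PDGFRB had a mean normalised count of 718 and fell (-0.94), and S100B, at a mean of 77.2, rose (1.21) by the same table. The part of these shifts in the results below was not tested.

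By the authors' deposited table, 4 of the 10 members rose and 1 fell, with 0.05 as the threshold on the DESeq2 adjusted p. Over all 13885 genes, 34.0% passed that threshold, 16.3% as higher and 17.7% as lower. DICER1, TNRC6B, TNRC6A and AGO2 rose, XPO5 fell, and AGO1, AGO3, AGO4, DROSHA and DGCR8 did not pass. The median log2 fold change of the members in the authors' deposited table was 0.22, beside 0.0059 over all genes. Their values ran from -0.81 to 0.89. Long, AT-rich transcripts tended to be higher across the whole table, and these genes have long transcripts. Over 13877 genes, which are not independent replicates, Spearman's rho of the log2 fold change was -0.42 with GC content and 0.24 with transcript length. The main transcript was chosen in GENCODE 29 by its principal-isoform (APPRIS) tag, then the basic tag, the support level and the greatest length. For the members it runs from 4514 bases for DGCR8 to 19687 for AGO3, beside a median of 2886 over all genes. With the trend of the fold change with GC content, transcript length and expression removed over the whole table, 3 members passed as higher (DICER1, TNRC6A and TNRC6B) and 1 as lower (XPO5), against 12.4% and 12.8% of all genes (25.2% in either direction), and the members' median was 0.072. At an adjusted p of 0.01 by DESeq2 in place of 0.05, 4 members passed as higher and 1 as lower, where 10.7% and 12.1% of all genes did (22.9% in either direction). What gives rise to the trend was not tested. With the Wald statistic divided by its robust SD over all genes, 2.44, 0 members passed in either direction by the adjusted DESeq2 values, against 2 higher and 1 lower at an unadjusted p of 0.05, and 21 of all genes passed as higher and 114 as lower.

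**Figure D1:**
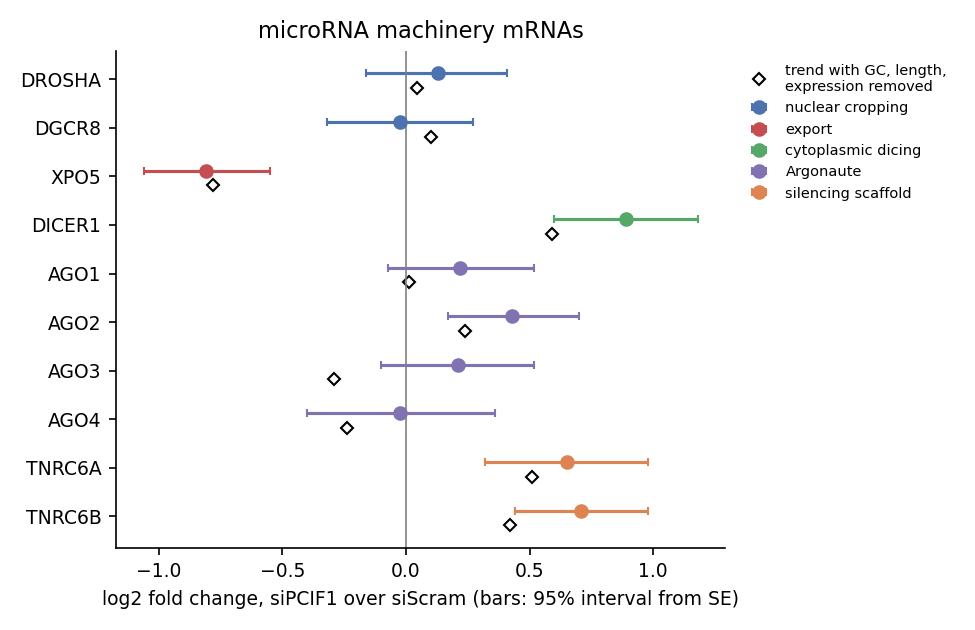
Log2 fold change of each member, siPCIF1 over siScram (horizontal axis), with circles and bars for the deposited value and its 95% interval from the SE, and open diamonds for the value with the GC, length and expression trend removed. DICER1, TNRC6A and TNRC6B lie to the right of 0 and XPO5 to the left by both measures, while AGO3 changes side, from 0.21 to -0.29.

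DROSHA and DGCR8, the subunits of the Microprocessor, did not pass. DROSHA makes the cuts at the base of the hairpin, and its log2 fold change by the authors' deposited table was 0.13 (with an SE of 0.15, DESeq2 adjusted p = 0.542), with a 95% interval from -0.16 to 0.41. DGCR8, which recognises the hairpin, was at -0.025 in the authors' deposited table (DESeq2 adjusted p = 0.919, with an SE of 0.15), with an interval from -0.32 to 0.27. Both intervals end below the point estimate of AGO2, 0.43, but overlap its own interval, from 0.17 to 0.70. Differences of these genes from AGO2 were not tested. DROSHA lies on chromosome 5 (31400497 to 31532196, minus strand) and DGCR8 on chromosome 22 (20080232 to 20111877, plus strand) in GRCh38. The DGCR8 mRNA itself carries hairpins that the Microprocessor is known to cut, annotated as MIR3618 and MIR1306. Both lie in an exon of its main transcript, and neither hairpin is listed as a gene of its own in the table. The mature strands below, from RefSeq (GRCh38.p14), show which part of the DGCR8 mRNA this is, with the seed in capitals.
miR-3618 (chr22:20085797-20085818, plus strand): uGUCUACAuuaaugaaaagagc
miR-1306-5p (chr22:20086072-20086093, plus strand): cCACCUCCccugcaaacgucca

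XPO5 was the member that fell. It was among the more abundant genes, with a mean normalised count of 1095 in the authors' deposited table. Its log2 fold change by the authors' deposited table was -0.81 (with an SE of 0.13, DESeq2 adjusted p = 1.18e-08), or 57.2% of the siScram level with a 95% interval from 48.0 to 68.1%. Ordered by fold change, it was number 784 from the lowest of 13885 genes. It was at -0.78 after the trend was removed, with an adjusted p of 6.15e-08 from the DESeq2 values, so its position hardly moved. RAN, the GTPase that loads XPO5 with cargo, was at 0.17 in the authors' deposited table (DESeq2 adjusted p = 0.327, with an SE of 0.13). The difference of XPO5 from RAN was -0.98, with a 95% interval from -1.33 to -0.62 that treats both estimates as independent. XPO5 (chromosome 6, 43522330 to 43576075, minus strand, GRCh38) shares 40090 bases of its span with POLR1C on the opposite strand, and POLR1C was at 0.28 in the authors' deposited table (DESeq2 adjusted p = 0.199). No source used here gives the strand setting of the counting, so reads of the shared part cannot be assigned with certainty.

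DICER1 showed the largest increase among the members in the direction used here; in the opposite direction it would be the largest decrease. Its mean normalised count was 887 and its log2 fold change 0.89 by the authors' deposited table (DESeq2 adjusted p = 7.44e-08, with an SE of 0.15), or 185% of the siScram level with a 95% interval from 151 to 227%. It stood at number 449 from the highest of the 13885 genes. With the trend removed it was at 0.59, with an adjusted p of 0.00088 from the DESeq2 values. A transcript of its length, GC content and level lay on average at 0.30, so about this much of its fold change ran with the trend. DICER1 and XPO5, whose products act one after the other, differed by 1.69 on the log2 scale (95% interval 1.31 to 2.08, estimates treated as independent). DICER1 also differed from DROSHA, the RNase of the Microprocessor, by 0.76 (95% interval 0.35 to 1.17). Its RNA-binding partners did not pass: TARBP2 was at -0.092 (with an SE of 0.15, DESeq2 adjusted p = 0.673) and PRKRA at -0.11 in the authors' deposited table (DESeq2 adjusted p = 0.655, with an SE of 0.17). With the trend removed TARBP2 was at 0.23 and PRKRA at -0.18. DICER1 then exceeded TARBP2 by 0.36 (95% interval -0.051 to 0.77), PRKRA by 0.76 (0.32 to 1.21) and DROSHA by 0.54 (0.13 to 0.95). DICER1 (chromosome 14, 95086228 to 95158010, minus strand, GRCh38) overlaps DICER1-AS1 on the opposite strand over 366 bases, and that transcript was at 0.17 in the authors' deposited table (DESeq2 adjusted p = 0.646).

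The DICER1 mRNA is itself a known microRNA target, of the miR-107 family in its 3′ UTR and of let-7 in its coding sequence. The matches are shown because DICER1 is the member that rose most. The word searched for miR-107 was ATGCTGC on the sense strand, the complement of the shared seed below. The 3′ UTR of the main DICER1 transcript, 4270 bases long, held 5 matches. Over 11642 3′ UTRs of the table, which differ in length, 13.1% held at least 1 match and 4, DICER1 included, held 5 or more. AGO2 also held 5, AGO1 and TNRC6B held 3 each, AGO4 held 2 and AGO3 held 1, while the other members held 0. The 1530 genes with a match had a median log2 fold change of 0.091 and the 10112 without one -0.018, and with the trend removed the medians were 0.019 and 0.021. The mature microRNAs are from RefSeq (GRCh38.p14) and the sites from the GENCODE 29 transcript, with the seed and its match in capitals.
miR-103a-3p: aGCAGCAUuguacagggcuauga
miR-107: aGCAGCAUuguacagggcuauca
DICER1 site at chr14:95089452-95089474, minus strand: cacctaaaatATGCTGCagattt
DICER1 site at chr14:95088851-95088873, minus strand: gcttcgtggaATGCTGCatttat
DICER1 site at chr14:95086324-95086346, minus strand: tacagtaatcATGCTGCagaaat
A match is a run of letters and no evidence of binding in these cells. The hairpins of this family lie within PANK genes, named here after their values were seen. PANK3, around miR-103a-1, was at 0.57 in the authors' deposited table (DESeq2 adjusted p = 0.00113, with an SE of 0.15), and at 0.23 (adjusted p = 0.274 from the DESeq2 values) with the trend removed. PANK1, around miR-107, was at 0.13 (DESeq2 adjusted p = 0.671) and PANK2 at 0.13 in the authors' deposited table (DESeq2 adjusted p = 0.532).

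Among the 4 Argonaute genes, AGO2 passed and the others did not. AGO2, on chromosome 8, had a log2 fold change of 0.43 in the authors' deposited table (DESeq2 adjusted p = 0.00681, with an SE of 0.14), or 135% of the siScram level with a 95% interval from 112 to 163%. Once the trend was removed it was at 0.24 and no longer passed, with an adjusted p of 0.185 from the DESeq2 values. AGO1 was at 0.22 (with an SE of 0.15, DESeq2 adjusted p = 0.254) and AGO3 at 0.21 in the authors' deposited table (DESeq2 adjusted p = 0.313, with an SE of 0.16). AGO4 was at -0.022 in the authors' deposited table (DESeq2 adjusted p = 0.944, with an SE of 0.19), with an interval from -0.40 to 0.36. The intervals of all 6 differences between the paralogs included 0. AGO2 exceeded AGO1 by 0.21 with a 95% interval from -0.19 to 0.61, and AGO4 by 0.46 with an interval from -0.0085 to 0.92. With the trend removed, AGO1 was at 0.014, AGO3 at -0.29 and AGO4 at -0.24. The difference of AGO2 from AGO3 became 0.53 (95% interval 0.13 to 0.94). Its difference from AGO4 became 0.48 (0.018 to 0.95), and that from AGO1 0.23 (-0.17 to 0.63). AGO3 has the longest transcript of the members, and a gene of its length, GC content and level lay on average at 0.50.

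AGO4, AGO1 and AGO3 form a cluster on the plus strand of chromosome 1 in GRCh38, in that order. AGO4 runs from 35808172 to 35857890, AGO1 from 35869808 to 35930528 and AGO3 from 35930718 to 36072500, so that AGO3 begins 190 bases after AGO1 ends. Of the clustered genes, 0 of 3 passed by DESeq2, beside 34.0% of all genes, and 0 at an unadjusted p of 0.05. AGO2, which stands alone on another chromosome, passed, but not with the trend removed (0.24, adjusted p = 0.185 from the DESeq2 values). That contrast was not tested beyond the intervals above.

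Levels between genes can be compared only per length, here as the mean normalised count per kb of the main transcript. XPO5 had the highest level of the members, at 204 per kb in the values derived from the authors' deposited table. DICER1 followed at 86.3, DROSHA at 80.2 and DGCR8 at 68.6 per kb. AGO2 was the most abundant Argonaute mRNA, at 58.9 per kb, ahead of AGO1 at 31.6, AGO4 at 13.4 and AGO3 at 11.8. TNRC6B and TNRC6A stood close together at 49.1 and 46.8 per kb. These levels have no error, since they are 1 mean over both groups, and they depend on the transcript chosen, most of all for AGO3 with its 3′ UTR of 16755 bases.

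If the shrinkage and the direction are read rightly, splitting each mean by the fold change without it gives 1 implied level per group. In the opposite direction the levels and shares below would change places between the groups. For XPO5 the implied normalised counts were 1408 with siScram and 782 with siPCIF1, and for DICER1 604 and 1169.8. XPO5 therefore stood above DICER1 in the siScram group in counts, and below it in the siPCIF1 group. Per kb, XPO5 remained the higher of the pair in both groups because its transcript is shorter. AGO2 made up 48.2% of the summed Argonaute level per kb in the siScram group and 53.1% in the siPCIF1 group. The share of AGO4 was 13.2% and 10.4%. These shares have no error of their own, and the intervals of the fold changes above overlap.

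**Figure D2:**
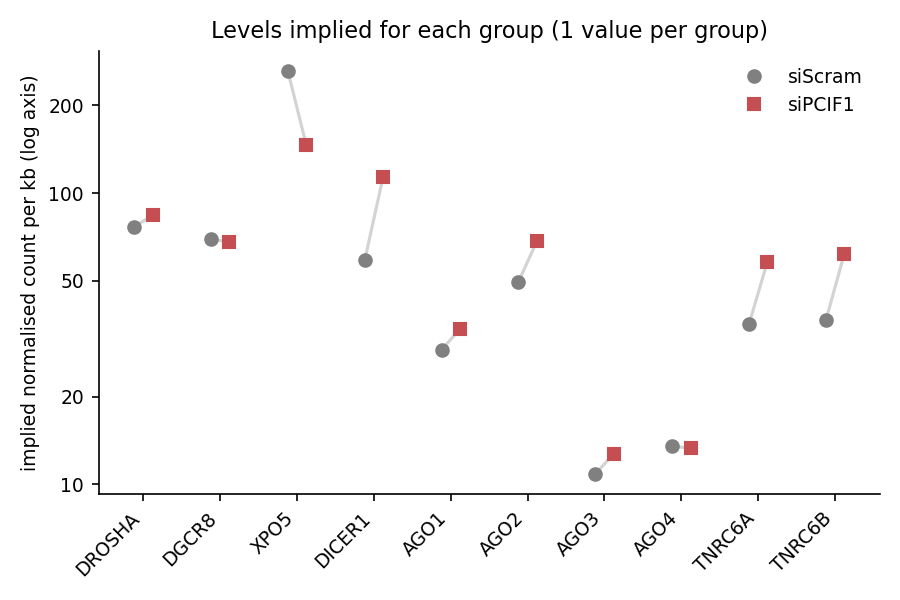
Normalised count per kb of main transcript (vertical log axis) implied for siScram (grey circles) and siPCIF1 (red squares) from the deposited mean and the fold change without shrinkage; there is 1 value per group and no error. The points of XPO5 and DICER1 move towards each other, and AGO3 and AGO4 lie lowest.

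TNRC6A and TNRC6B, the scaffolds that link Argonaute to mRNA decay, both rose. TNRC6B was at 0.71 in the authors' deposited table (DESeq2 adjusted p = 5.3e-06, with an SE of 0.14), or 164% of the siScram level with a 95% interval from 135 to 198%. TNRC6A was at 0.65 in the authors' deposited table (DESeq2 adjusted p = 0.000728, with an SE of 0.17), or 157% with an interval from 125 to 197%. Their difference was 0.061 (95% interval -0.36 to 0.49). With the trend removed TNRC6B was at 0.42 and TNRC6A at 0.51, with adjusted p of 0.0144 and 0.0135 from the DESeq2 values. TNRC6C, the remaining paralog and not one of the 10, was at 0.24 in the authors' deposited table (DESeq2 adjusted p = 0.216, with an SE of 0.15). TNRC6B exceeded TNRC6C by 0.47 (95% interval 0.072 to 0.87), and by 0.25 (95% interval -0.15 to 0.64) with the trend removed. TNRC6A lies on chromosome 16 (24610209 to 24827632) and TNRC6B on chromosome 22 (40044817 to 40335808), both on the plus strand in GRCh38. The 17 intervals computed for pairs of genes were not adjusted for their number.

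The wider pathway was described from lists of textbook members, whose counts stand beside the 16.3% of all genes that passed as higher and the 17.7% that passed as lower (12.4% and 12.8% with the trend removed). Of 16 listed nuclear processing factors, 6 rose and 2 fell by DESeq2 within the authors' deposited table, with a median of 0.30 beside 0.0059 over all genes. LIN28B, which binds let-7 precursors and blocks their processing, was at 1.46 in the authors' deposited table (DESeq2 adjusted p = 4.5e-16, with an SE of 0.17) and at 1.17 with the trend removed. TRUB1, HNRNPA2B1 and TARDBP, which are RNA-binding or RNA-modifying proteins linked to primary microRNAs, were at 0.70, 0.73 and 0.80 by the authors' deposited table. The helicase DDX5, an accessory factor of the Microprocessor, was at 0.58 in the authors' deposited table. Without the trend 8 passed as higher and 1 as lower, and TRUB1 did not (0.39, adjusted p = 0.0717 from the DESeq2 values). ERH, a DGCR8-binding protein, was among the genes that fell, at -0.36 by the authors' deposited table.

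Of 14 Dicer partners and Argonaute loading factors, 6 rose and 1 fell by DESeq2 within the authors' deposited table, with a median of 0.16. Over all genes 16.3% rose and 17.7% fell. TSNAX, a subunit of the C3PO nuclease that removes the passenger strand, was at 1.06 (with an SE of 0.19) in the authors' deposited table. TSN, its partner in that nuclease, did not pass, at 0.11 (with an SE of 0.15, DESeq2 adjusted p = 0.617). The HSP90 genes, whose chaperone opens Argonaute for the duplex, were at 0.63 for HSP90AB1 and 0.78 for HSP90AA1 in the authors' deposited table. Their co-chaperones FKBP5, FKBP4 and PTGES3 were at 0.79, 0.35 and 0.48, and CDC37 at -0.34, in the authors' deposited table. Without the trend 7 passed as higher and 0 as lower, beside 12.4% and 12.8% of all genes. CDC37 went to -0.00087 and PTGES3 to 0.40, with adjusted p of 0.997 and 0.0872 from the DESeq2 values. HSP90 genes have close paralogs and pseudogenes, so their counts are less certain.

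Argonaute-associated factors went both ways. Of 17 listed, 5 rose and 4 fell by DESeq2 within the authors' deposited table, beside 16.3% and 17.7% of all genes. Their median was 0.24. AJUBA, a LIM protein that binds Argonaute, was at -1.38 (with an SE of 0.22) and the helicase MOV10 at -0.78 (with an SE of 0.17) in the authors' deposited table. FMR1 and FXR1, RNA-binding proteins of one family, were at 0.73 and 0.65, and their paralog FXR2 at -0.38, in the authors' deposited table. ZSWIM8, the ubiquitin ligase adaptor of target-directed microRNA decay, was at -0.41 (with an SE of 0.14) in the authors' deposited table. With the trend taken out, 2 of the 17 passed as higher and 2 as lower, beside 12.4% and 12.8% of all genes. Those higher were EIF4E2 (0.52) and GIGYF1 (0.41), with adjusted p of 0.00122 and 0.0314 from the DESeq2 values. They had not passed before, and none of the 5 that rose kept its call. FMR1 (0.44), FXR1 (0.31), FXR2 (-0.12) and ZSWIM8 (-0.21) then no longer passed, with adjusted p of 0.0668, 0.222, 0.635 and 0.3 from the DESeq2 values.

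Next come the enzymes that TNRC6 proteins recruit. Over all genes 34.0% passed in either direction. Of 17 deadenylation genes, 3 rose and 1 fell by DESeq2 within the authors' deposited table, with a median of 0.0028. CNOT6 and CNOT6L, a paralogous pair of catalytic subunits, were at 0.66 (with an SE of 0.16) and 0.72 (with an SE of 0.19) in the authors' deposited table. CNOT7 and CNOT8 of the same complex did not pass, at 0.047 and -0.076 (DESeq2 adjusted p = 0.836 and 0.731). The scaffold CNOT1 was at 0.16 in the authors' deposited table (DESeq2 adjusted p = 0.324). CNOT3 was at -0.69 and TOB1 at 0.72 in the authors' deposited table. With the trend taken out, 1 deadenylation gene passed in each direction, and CNOT6 (0.37) and CNOT6L (0.28) did not, with adjusted p of 0.0606 and 0.291 from the DESeq2 values. Of 12 decapping and decay genes, 2 rose and 0 fell by DESeq2 within the authors' deposited table, the same counts as at an unadjusted p of 0.05, and the median was 0.046. Those that rose were the helicase DDX6, at 0.71 (with an SE of 0.14), and the exonuclease XRN1, at 0.64 (with an SE of 0.18), in the authors' deposited table. Without the trend 1 passed as higher and 1 as lower: XRN1 was at 0.23 (adjusted p = 0.376 from the DESeq2 values), and DCP1A, an activator of decapping named after its value was seen, at -0.48 (adjusted p = 0.0183 from the DESeq2 values). Of 10 genes of microRNA tailing and turnover, 1 rose and 2 fell by DESeq2 within the authors' deposited table. The nuclease SND1 was at -0.74 (with an SE of 0.13), ZC3H12A at -0.78 and PNPT1 at 0.83 in the authors' deposited table, and the uridylyl transferases TUT4 and TUT7 did not pass, at 0.26 and 0.23. ZC3H12A lost its call without the trend (-0.63, adjusted p = 0.0797 from the DESeq2 values).

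**Figure D3:**
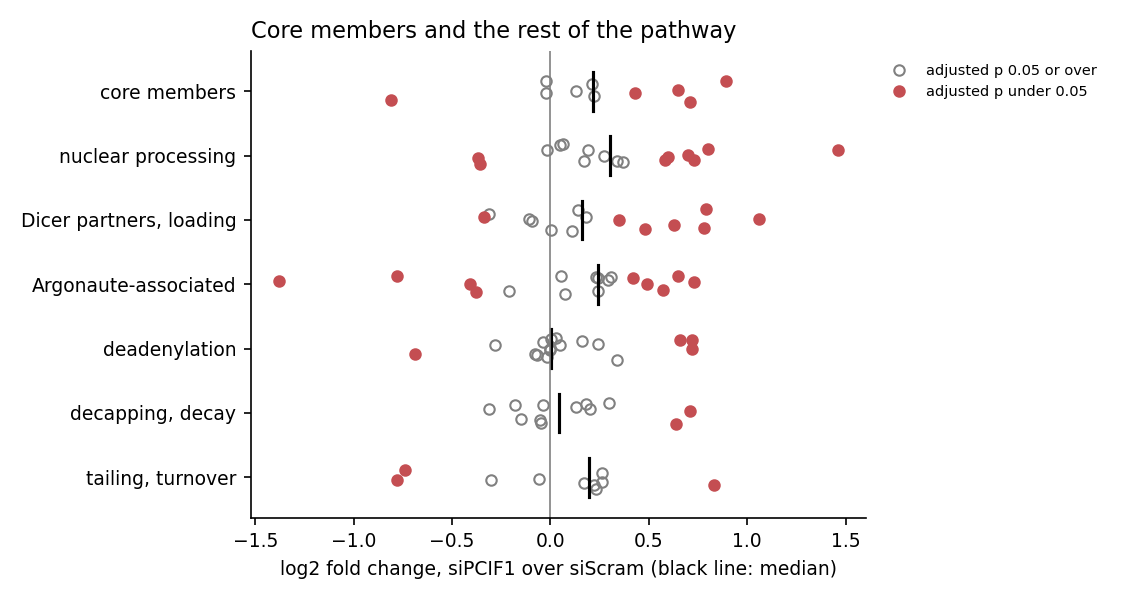
Log2 fold change (horizontal axis) of each listed gene in 7 groups, core members first; filled red points passed the DESeq2 adjusted p of 0.05, open points did not, and the black line is the group's median (vertical scatter within a row has no meaning). Deadenylation and decapping genes gather near 0, and LIN28B is the rightmost point at 1.46.

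The machinery works on primary microRNA transcripts, and the host transcripts of microRNAs are listed among the genes. Their counts do not measure the hairpins supplied to the machinery, and poly(A)-selected libraries do not measure mature microRNAs. Of 23 listed host transcripts, 5 rose and 3 fell by DESeq2 within the authors' deposited table, near the 34.0% of all genes that passed in either direction, with a median of 0.17. Hosts of let-7 hairpins were found in both directions. MIRLET7BHG, the host of let-7a-3 and let-7b, was at -0.74 in the authors' deposited table (DESeq2 adjusted p = 6.3e-06, with an SE of 0.15). MIR99AHG, around let-7c, was at 1.12 (with an SE of 0.17, DESeq2 adjusted p = 7.03e-09), and MIR100HG, around let-7a-2, at 0.99 in the authors' deposited table (DESeq2 adjusted p = 0.000367, with an SE of 0.24). MIR4458HG, whose microRNA has the let-7 seed, was at 0.59 in the authors' deposited table (DESeq2 adjusted p = 0.0216, with an SE of 0.21). With the trend removed these hosts were at -0.50, 0.92, 0.69 and 0.29, and MIR4458HG no longer passed (adjusted p = 0.339 from the DESeq2 values). The sequences, from RefSeq (GRCh38.p14) with the seed in capitals, show that the seeds of these hosts are the same although the transcripts went opposite ways.
let-7a-5p (MIRLET7BHG, chr22:46112752-46112773, plus strand): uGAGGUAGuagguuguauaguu
let-7b-5p (MIRLET7BHG, chr22:46113691-46113712, plus strand): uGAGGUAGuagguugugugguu
let-7c-5p (MIR99AHG, chr21:16539838-16539859, plus strand): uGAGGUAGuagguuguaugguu
let-7a-5p (MIR100HG, chr11:122146568-122146589, minus strand): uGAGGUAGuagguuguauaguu
miR-4458 (MIR4458HG, chr5:8460933-8460951, plus strand): aGAGGUAGguguggaagaa
The let-7 hairpins of MIRLET7BHG lie in an exon of its main transcript, and those of MIR99AHG and MIR100HG do not. A pair of lincRNAs on the strand opposite to MIRLET7BHG, AL121672.1 and AL121672.2, were also low, at -1.36 and -0.83 by the authors' deposited table. Their mean normalised counts were only 15.4 and 27.4, beside 377 for MIRLET7BHG. Its other listed overlapping genes did not pass: PRR34-AS1 on the same strand (-0.31, DESeq2 adjusted p = 0.339) and PRR34 (-0.62, DESeq2 adjusted p = 0.0778). Reads of spans shared by opposite strands cannot be told apart without the strand setting. MIR99AHG and MIR100HG each also hold a miR-125b hairpin and one of the miR-99/100 family.

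Other hosts that passed were MIR22HG at -1.51 (with an SE of 0.27), a transcript of low level with a mean normalised count of 28.0, MIR4435-2HG at -0.50, MIR4697HG at 0.63 and MIR9-3HG at 0.54 in the authors' deposited table. MIR17HG, the host of the miR-17-92 cluster known as a MYC and MYCN target, was at 0.19 in the authors' deposited table (DESeq2 adjusted p = 0.545, with an SE of 0.23). The hosts MIR137HG and MIR124-2HG, of microRNAs abundant in neurons, did not pass, at 0.065 and 0.17 in the authors' deposited table. Of 15 loci annotated as microRNA genes themselves, 0 rose and 5 fell by DESeq2 within the authors' deposited table, or 1 and 5 at an unadjusted p of 0.05. Over all genes 16.3% rose and 17.7% fell by the adjusted p. Among the loci that fell, MIR7845 and MIR616 had low mean normalised counts, at 20.2 and 24.8, and the others had higher ones. With the trend removed 2 passed in each direction, beside 12.4% of all genes as higher and 12.8% as lower. The 2 higher were MIR134 and MIR7161, with low mean normalised counts of 10.3 and 12. Neither had passed as deposited (DESeq2 adjusted p = 0.103 and 0.193). Reads at such short loci may come from the surrounding transcript.

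**Figure D4:**
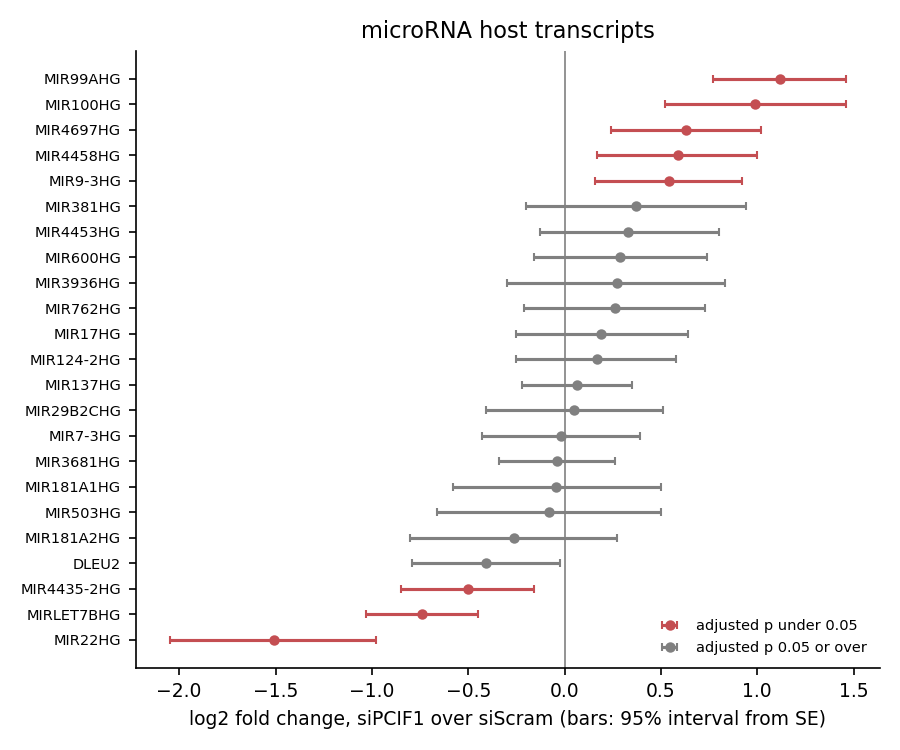
Log2 fold change of 23 microRNA host transcripts (horizontal axis, 95% interval from the SE), ordered by value; red marks a DESeq2 adjusted p under 0.05. MIR99AHG and MIR100HG stand highest, at 1.12 and 0.99, and MIRLET7BHG and MIR22HG lowest, at -0.74 and -1.51.

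Known let-7 targets include LIN28B and DICER1 themselves. The word searched was CTACCTC on the sense strand, the complement of the seed GAGGUAG. The coding sequence of DICER1 held 4 matches and its 3′ UTR 0. Over 11642 coding sequences 14.1% held at least 1 match and 7, DICER1 included, held 4 or more. LIN28B held 4 matches in its 3′ UTR, where 9.8% of genes held at least 1 and 10, LIN28B included, held 4 or more. The sites below are from the GENCODE 29 transcripts, with the match in capitals, and show examples in each of these genes.
DICER1 coding site at chr14:95103743-95103765, minus strand: gtgcaaccaaCTACCTCatattc
DICER1 coding site at chr14:95094101-95094123, minus strand: cgattttggaCTACCTCataacc
LIN28B 3′ UTR site at chr6:105078817-105078839, plus strand: gttgcaaagtCTACCTCatgcaa
LIN28B 3′ UTR site at chr6:105081426-105081448, plus strand: cagcaaaaggCTACCTCatagtt
Of 15 listed textbook let-7 targets, 9 rose and 3 fell by DESeq2 within the authors' deposited table, beside 16.3% and 17.7% of all genes. Their median was 0.38, beside 0.0059 over all genes. With the trend removed 6 passed as higher and 1 as lower, beside 12.4% and 12.8% of all genes. The median of the list was then 0.22, beside 0.026 over all genes. CCND1 and MYCN, a cyclin and the amplified oncogene of this line, were at 1.14 and 1.09, and MYC at -2.22, in the authors' deposited table. DICER1 and LIN28B are counted in this list too. Over the whole table, the 1141 genes with a match in the 3′ UTR had a median of 0.08 and the 10501 without one -0.012. Their 3′ UTRs had a median length of 2897 and 1001 bases, and with the trend removed the medians were -0.0066 and 0.024, so the order turned. Levels of let-7 were not measured.

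PCIF1 methylates transcripts that start with an adenosine, so the first base of each member was looked up. For 9 members outside chromosome 8, the start nearest to it in RefSeq and the start of the main GENCODE transcript were at the same base for 1, AGO1, which begins with A in both. The 9 had A at 5 of the RefSeq starts and at 3 of the GENCODE starts, beside 44.4% of all 35116 RefSeq start windows. Among the 5 is TNRC6B, whose RefSeq start lies 133108 bases from its GENCODE start. The starts used in these cells were not measured, so no member could be assigned to a class by its first base.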

How the data were processed

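The one table used is the authors' deposited DESeq2 comparison of 3 siPCIF1 and 3 siScram samples, with 6 columns for 13885 genes. Its mean normalised counts are a signal, its fold change and SE are log2 values, its Wald statistic is a score, and its p-values are as the authors deposited them, per the file headers. Libraries were poly(A)-selected and stranded, per the labels' protocols; STAR 2.7.10a, HTSeq and DESeq2 are among the tools in the submitters' processing notes, with cutadapt 3.7, bcl2fastq 2.20 and the hg38 build. The annotation and settings of the counting: not given in the sources used here. The depth of each library is unknown, so the SE (median 0.18) is the only measure of precision.

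Symbols, transcripts and coordinates came from GENCODE 29 (13877 identifiers matched). Intervals are 95% from the SE. The trend was a regression on cubic terms of GC content, log2 length and log2 mean, with p-values recomputed from the shifted Wald statistic and Benjamini-Hochberg adjusted over 13877 genes. Values without shrinkage assume a normal prior with an SD of 0.59. Steps were tested on simulated data in Python 3.11.15 with numpy 2.4.6, scipy 1.17.1 and pandas 2.3.3. The members and lists were chosen with earlier results of these data known. Named genes were all members, PCIF1, and for each list up to 4 by smallest adjusted p plus those needed for counts. A few more were named after their values were seen. Among them were RAN, TARBP2, PRKRA, TNRC6C, the PANK genes, overlapping genes, CNOT1, CNOT7, CNOT8, TUT4, TUT7, MIR7845, MIR616, MIR17HG, MIR137HG and MIR124-2HG. TSN, EIF4E2, GIGYF1, MIR134 and MIR7161 were named in this way too. Values of 2 listed genes are not reported here.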

Additional observations from a re-analysis of the deposited data

How the results depend on the processing

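The members' calls did not change with an adjusted p of 0.01 (where 1489 of all genes were higher in place of 2263) or 0.10, with fold changes centred on their median, or when genes with means under 100 were left out (AGO4 among them). After removal of the trend with GC content, length and level, AGO2 was at 0.24 (adjusted p = 0.185 from the DESeq2 values) and lost its call, and DGCR8 and AGO3, which had no call, changed sign to 0.10 and -0.29. In a test against an absolute log2 change of 0.3, 2 members passed as higher (DICER1 and TNRC6B) and XPO5 as lower, with 687 of all genes higher and 839 lower in place of 2453. With the Wald statistic divided by its robust SD of 2.44, 0 members passed as higher and 0 as lower (2 and 1 at an unadjusted p of 0.05), and of all genes 21 and 114 did; adjusted p from the DESeq2 statistics were then 0.334 for XPO5 (-0.81), 0.4 for DICER1 (0.89), 0.578 for TNRC6B (0.71), 0.808 for TNRC6A (0.65) and 0.909 for AGO2 (0.43). Real changes also widen that SD, and 5998 genes had an unadjusted p under 0.05 in the authors' deposited table. Without shrinkage DICER1 was at 0.95 and XPO5 at -0.85. No paired analysis was possible because the table holds no values per library, and replicates could not be left out for the same reason.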

Other observations

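The PIWI pathway, which protects germ cells from transposons with a separate class of small RNAs, had 2 of 10 textbook members listed in the table. TDRD1, a Tudor domain protein of that pathway, was listed with a mean normalised count of 192 and was at 0.93 by the authors' deposited table (DESeq2 adjusted p = 1.21e-05, with an SE of 0.19). PLD6 was at 0.45 by the authors' deposited table (DESeq2 adjusted p = 0.173).

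Of 16 listed textbook targets of other microRNAs known in neuroblastoma, 3 rose and 2 fell by DESeq2 within the authors' deposited table, with a median of 0.082, where 34.0% of all genes passed in either direction. CCNE2 was at 1.77 (SE 0.23), SIRT1 at 0.59 and CDKN1A at -1.46 (SE 0.17) in the authors' deposited table. PTBP1, a splicing repressor and a known target of miR-124, was at -0.46 by the authors' deposited table (DESeq2 adjusted p = 0.00864), and at -0.19 with the trend removed. SIRT1 was then at 0.37. Neither passed, with 0.369 for PTBP1 and 0.137 for SIRT1 as the adjusted p from the DESeq2 values.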
